A study of Mus musculus with 9 samples.

Results

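Toll-like receptors are pattern sensors that B cells share with macrophages and dendritic cells. The list taken up here names 10 genes of this system, and the expression of 9 of them was followed in mouse germinal center (GC) B cells with or without Foxo1. The list holds the receptors Tlr1, Tlr4, Tlr6, Tlr7 and Tlr9, the receptor-like Cd180 and its partner Ly86, the trafficking factor Unc93b1, the adaptor Myd88 and the kinase Irak4. All probe sets annotated to these genes alone were taken, which gave 14 probe sets for 9 genes, of 45101 probe sets for 18194 genes in all. The expression of Irak4 was not analysed here, and only its promoter window was searched. Of the 14 probe sets, 11 passed a filter on dim signals and were tested. They covered 8 genes, and Tlr9 was not among them.

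Transcripts were measured on 9 Affymetrix mouse arrays, with 3 arrays per genotype. The KO group was FOXO1f/f, Cg1-Cre, with 2 floxed alleles. The HET group was FOXO1f/+, Cg1-Cre, with 1 floxed allele, and the WT group was FOXO1+/+, Cg1-Cre, so that all 3 groups carried the Cre recombinase, which is switched on with the Cg1 locus in activated B cells. All mice were 10 weeks old, received sheep red blood cells on days 0 and 5, and were killed on day 12. High B220, PNA and CD95 marked the GC B cells that were sorted from the spleen. The sample labels give 1 animal per array, whereas the design text mentions pooled cells.

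TLR1 and TLR6 each pair with TLR2 at the cell surface and sense bacterial lipoproteins. TLR4 senses lipopolysaccharide together with MD-2, the product of Ly96, and CD180 with MD-1, the product of Ly86, forms a related complex on B cells. TLR7 and TLR9 sense RNA and DNA in endosomes, which they reach with the help of UNC93B1. Nearly all of these receptors signal through MyD88 and the IRAK kinases.

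Of the 8 genes tested, Tlr1 was higher in KO cells than in both other genotypes, and no gene was lower. Of all genes, 4.79% were higher and 4.91% lower in KO vs WT cells, and 3.45% and 3.7% in KO vs HET cells. The Tlr1 call against WT was lost in 1 of 24 alternative settings. The levels of Tlr4, Cd180, Unc93b1 and Myd88 overlapped between KO and WT cells. Outside these members, 7 of 45 tested pathway genes were higher in KO vs WT cells, where 4.79% of all genes were higher. They were the TLR4 partner Ly96, the TLR2 co-receptor Cd36, the adaptor Pik3ap1, the inhibitor Tnip1, and Ticam1, Hsp90b1 and Ikbke. The last 3 lost the call under some of the alternative settings. No gene of the pathway passed the test between HET and WT cells, and neither did Foxo1. Over all genes 1 of 10331 was called there.

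The deposited values are MAS5 signals, a linear intensity per probe set scaled to a common trimmed mean on each array. Levels of different probe sets cannot be set against each other. Differences were tested with limma on log2(signal + 2.09) over 23344 probe sets, and a call is a Benjamini-Hochberg adjusted p under 0.05 over all of them, two-sided. A gene is counted by its brightest probe set. The array medians, used as the bound for dim signals, were 47.4 to 48.0 in KO, 44.0 to 45.0 in HET and 42.9 to 44.8 in WT arrays. Array pairs correlated at 0.971 to 0.973 within and at 0.967 to 0.974 between genotypes over log2 signals. The brightest Foxo1 probe set averaged 1034 ± 335 in KO, 3564 ± 77.9 in HET and 5449 ± 159 in WT cells (SD, n = 3 each), and its arrays did not overlap between any 2 genotypes. Groups were apart in the same direction for 13.5% of genes in KO vs WT, 13.1% in KO vs HET and 4.88% in HET vs WT. Foxo1 was lower in KO vs WT (-2.45, limma adjusted p = 3.09e-06) and in KO vs HET (-1.83, limma adjusted p = 4.48e-05). In HET vs WT the difference of -0.61 did not pass over all probe sets (unadjusted p = 0.00288, limma adjusted p = 0.999), and the other Foxo1 probe sets did not pass either (adjusted p of 0.149 or above), so this comparison did not call the targeted gene itself. Of 10 GC B cell markers, 8 were tested, among them Cd79a, Cd79b, Ms4a1 and Bcl6. In KO vs WT the sorting marker Fas was higher (log2 difference 0.30, adjusted p = 0.0215), Gcsam was lower (-1.36, adjusted p = 2.95e-05) and 6 did not pass. In that comparison 4.79% of all genes were higher and 4.91% lower. The number of arrays limits the precision. In bulk RNA of this kind, a change in the share of a cell type and a change in RNA per cell cannot be told apart.

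Because Tlr1 was the member that changed, and the related Tlr6 is its neighbour on chromosome 5, the RefSeq promoter windows of both genes (build GRCm38.p6, minus strand) that hold a short FOXO-type core are shown. Each runs from 250 bases before to 50 bases after an annotated start. Capitals mark TGTTTA, the reverse complement of TAAACA, whose first base lies at -144 from the start in Tlr1 and at -182 in Tlr6.

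Tlr1 (chr5:64933509-64933808): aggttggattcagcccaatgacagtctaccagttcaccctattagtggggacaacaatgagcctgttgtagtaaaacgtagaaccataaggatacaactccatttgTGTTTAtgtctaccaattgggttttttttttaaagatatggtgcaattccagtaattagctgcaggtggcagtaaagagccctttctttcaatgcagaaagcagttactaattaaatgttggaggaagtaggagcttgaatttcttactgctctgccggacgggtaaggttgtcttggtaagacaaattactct

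Tlr6 (chr5:64959999-64960298): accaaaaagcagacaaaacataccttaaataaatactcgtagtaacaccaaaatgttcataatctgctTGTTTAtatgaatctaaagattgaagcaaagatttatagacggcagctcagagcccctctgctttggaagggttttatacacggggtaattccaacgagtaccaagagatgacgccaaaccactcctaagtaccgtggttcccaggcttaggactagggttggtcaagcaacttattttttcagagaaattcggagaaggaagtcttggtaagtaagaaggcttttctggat

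The full FOXO core GTAAACA, searched on both strands, was in 0 of the 10 promoter windows found for 7 of the 10 genes, Irak4 included. It was in 3.65% of all 32851 windows of 300 bases in the table. The shorter TAAACA, which overlaps it and was chosen after the full core gave no match, was in 2 of the 10 windows, the ones shown, and in 13.4% of all windows. A match describes the letters of a window and not a binding site. Tlr1 and Tlr6 each have another listed start, whose window held neither motif. No window was found for Tlr4, Tlr7 and Unc93b1. Of the 7 pathway genes outside the members that were called in KO vs WT, 6 had a window, and 0 of these windows held either motif.

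Tlr1, the receptor with the clearest difference, is measured by 1 probe set. Its signal was 4852, 4652 and 5825 on the KO arrays, 4043, 3764 and 3649 on the HET arrays and 3682, 4054 and 3766 on the WT arrays. All 3 KO arrays lay above all 6 others, as against WT for 16.2% of genes and against HET for 14.5% of genes, and HET and WT arrays overlapped. The mean was 5109 ± 627 in KO, 3819 ± 202 in HET and 3834 ± 195 in WT cells (SD, n = 3 each). Tlr1 was 1.33-fold higher in KO vs WT cells on the log2(signal + 2.09) scale, a log2 difference of 0.41 (SE 0.08, 95% interval 0.23 to 0.58, limma adjusted p = 0.00935). Against HET cells the difference was 0.41 (SE 0.08, limma adjusted p = 0.0111). HET vs WT cells differed by -0.01 (95% interval -0.18 to 0.17, limma adjusted p = 0.999). The Tlr1 call held in 23 of 24 alternative settings, and was lost without a mean-variance trend in the limma prior (adjusted p = 0.0581 against WT and 0.0658 against HET). On this count 1 of 8 tested members was higher in KO vs WT, where 4.79% of 10331 genes were higher, 4.91% lower and 9.7% called in either direction. In KO vs HET it was again 1 of 8, where 3.45% of genes were higher, 3.7% lower and 7.14% called.

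**Figure D1:**
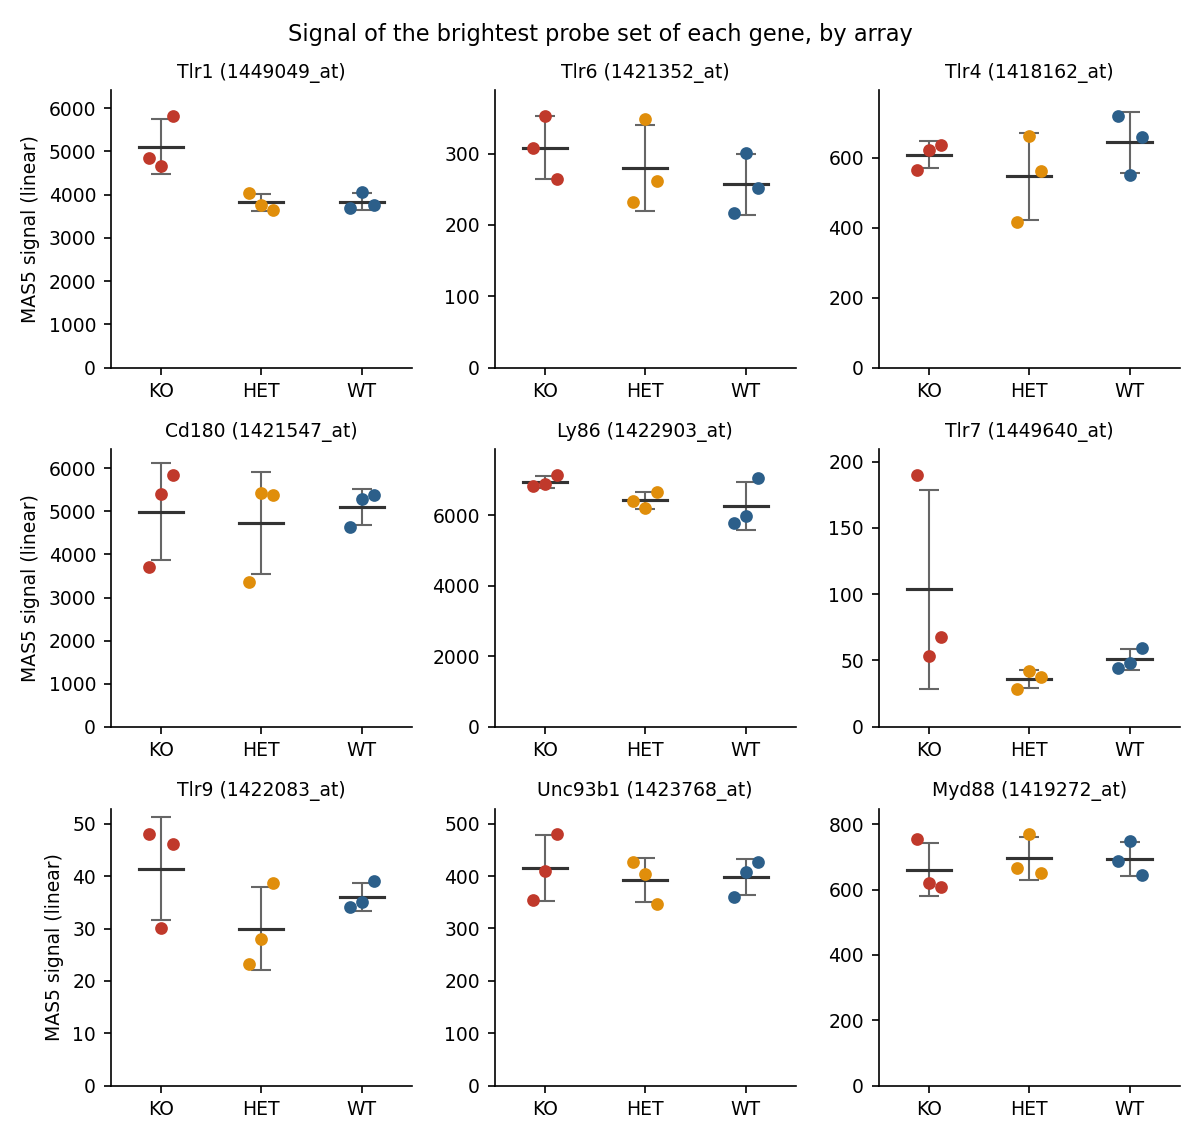
MAS5 signal (linear, from 0) of the brightest probe set of each of 9 genes on every array, with KO, HET and WT from left to right. Points are arrays, bars the mean and whiskers the SD (n = 3). For Tlr1 the KO arrays lie between 4652 and 5825, above every HET and WT array, while the groups of Tlr4, Cd180, Unc93b1 and Myd88 overlap.

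A departure of HET cells from the midpoint between KO and WT cells was -0.21 for Tlr1 (SE 0.07), below the midpoint, and did not pass over all probe sets (unadjusted p = 0.0112, limma adjusted p = 0.344). Of the 8 members limma called 0 for this departure, with 2 at an unadjusted p under 0.05. Of all 10331 genes, 0.678% were called and 1065 had an unadjusted p under 0.05. The genes whose log2 signals followed Tlr1 most closely over the 9 arrays were Mllt11 (Pearson r = 0.98), the RIKEN transcript 9030404E10Rik (r = 0.97) and Map4k1 (r = 0.96), which encodes a kinase that dampens antigen receptor signaling. They were picked as the highest of 10330 genes, and all of these values share the same arrays.

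Tlr6, which encodes the other lipoprotein co-receptor, did not follow Tlr1 past the test. Its signal was 308, 353 and 264 on the KO arrays, 232, 348 and 261 on the HET arrays and 217, 301 and 252 on the WT arrays. The groups overlapped. In KO vs WT the log2 difference was 0.27 (95% interval -0.13 to 0.66, limma adjusted p = 0.422), an interval that includes both 0 and the value for Tlr1. Tlr2, the common partner of both receptors and no member of the list, had a dim signal of 27.2, 60.2 and 58.9 on the KO arrays, 47.2, 29.0 and 32.5 on the HET arrays and 35.0, 33.6 and 31.6 on the WT arrays. It was under the array median on all 3 WT arrays, 2 HET arrays and 1 KO array and did not pass (0.44, adjusted p = 0.49).

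Tlr4, the lipopolysaccharide receptor, is measured by 4 probe sets. The brightest gave 566, 624 and 638 on the KO arrays, 415, 664 and 562 on the HET arrays and 721, 551 and 661 on the WT arrays. These overlapped in every pair of genotypes. The KO vs WT log2 difference was -0.07 (95% interval -0.42 to 0.27, limma adjusted p = 0.836). The second probe set averaged 102 ± 29.5 in KO, 109 ± 32.4 in HET and 90.8 ± 3.96 in WT cells (SD, n = 3 each), with a KO vs WT difference of 0.12 (adjusted p = 0.834). The other 2 probe sets never reached the array median and were not tested. They ranged from 1.01 to 23.0 in KO, from 2.96 to 20.1 in HET and from 2.15 to 24.0 in WT cells.

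CD180 and its partner MD-1 restrain or boost the TLR4 response depending on the cell. Cd180 gave 3712, 5402 and 5853 on the KO arrays, 3359, 5439 and 5380.0 on the HET arrays and 4632, 5296 and 5380.2 on the WT arrays. One KO array and 1 HET array were below all WT arrays, and the rest lay between 4632 and 5853. The KO vs WT log2 difference was -0.06 (95% interval -0.46 to 0.35, limma adjusted p = 0.897) and the HET vs WT difference -0.14 (95% interval -0.54 to 0.26, limma adjusted p = 0.999). Ly86, which encodes MD-1, gave 6832, 6887 and 7155 on the KO arrays, 6413, 6198 and 6670.1 on the HET arrays and 5772, 5982 and 7048 on the WT arrays. The KO arrays lay above all HET arrays, as for 14.5% of genes, and overlapped with 1 WT array. The KO vs WT difference of 0.16 (SE 0.07, 95% interval 0.01 to 0.30) did not pass (limma adjusted p = 0.199). It passed without WT replicate 3, the highest WT array (0.24, adjusted p = 0.0162), and with quantile normalization (0.20, adjusted p = 0.0425).

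The signals of Tlr7 and Tlr9, the endosomal receptors among the members, were dim. Tlr7, an X-linked gene, is measured by 3 probe sets, each below the array median on some arrays. The brightest gave 190.2, 53.2 and 67.8 on the KO arrays, 28.4, 42.2 and 37.7 on the HET arrays and 44.6, 48.3 and 59.6 on the WT arrays. KO replicate 1 stood far above the other KO arrays. All KO arrays lay above all HET arrays, as for 14.5% of genes, and all HET arrays below all WT arrays, as for 4.88% of genes. All 3 HET arrays and 1 WT array were below the array median. The differences of 0.79 in KO vs WT (95% interval -0.08 to 1.65, limma adjusted p = 0.268), 1.26 in KO vs HET (95% interval 0.40 to 2.13, limma adjusted p = 0.0899) and -0.48 in HET vs WT (95% interval -1.34 to 0.38, limma adjusted p = 0.999) did not pass. Without KO replicate 1 the KO vs WT difference was 0.24. The KO vs HET difference was 0.72 without KO replicate 1 and passed without KO replicate 2 (1.62, adjusted p = 0.0495). A second probe set, drawn from the same source sequence, also had its highest signal on KO replicate 1, with 185 there and 43.9 and 47.6 on the other KO arrays, and its KO vs WT difference was 0.56 (adjusted p = 0.497). Without KO replicate 1 that difference was -0.09. The third gave 77.4, 54.9 and 36.3 on the KO arrays and 41.5, 54.5 and 24.0 on the WT arrays (0.48, adjusted p = 0.472). The signal of Xist differed between arrays of the same genotype. It was 6828 to 8322 on KO replicates 1 and 2, HET replicate 3 and WT replicates 2 and 3. On the other arrays it was 23.2 to 66.1.

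Tlr9, the receptor for unmethylated CpG DNA, has 1 probe set, which reached the array median on 1 of 9 arrays. Its signal was 48.1, 30.1 and 46.1 on the KO arrays, 23.3, 27.9 and 38.7 on the HET arrays and 34.1, 35.1 and 39.1 on the WT arrays. It was not tested, and a dim signal on 1 probe set does not show whether the level of Tlr9 is low. Unc93b1, which brings the endosomal receptors to their compartment, gave 354, 410.2 and 481 on the KO arrays, 427, 403 and 347 on the HET arrays and 361, 408 and 426 on the WT arrays. The KO vs WT difference was 0.05 (95% interval -0.25 to 0.35, limma adjusted p = 0.868). The groups overlapped. Myd88, the adaptor shared by nearly all of these receptors, gave 753, 619 and 608 on the KO arrays, 667, 771 and 650.2 on the HET arrays and 687, 749 and 644 on the WT arrays. Its groups overlapped too, with a KO vs WT difference of -0.07 (95% interval -0.32 to 0.17, limma adjusted p = 0.755).

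**Figure D2:**
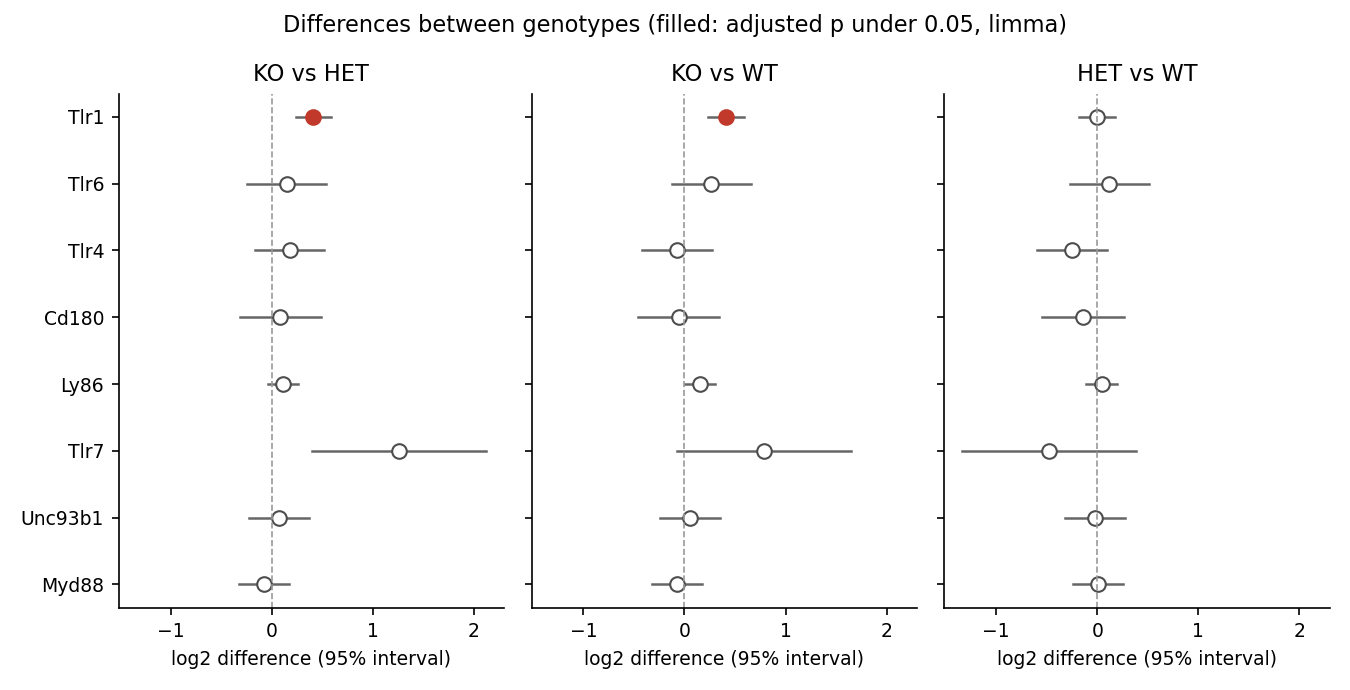
Log2 difference of the brightest probe set of the 8 tested genes in KO vs HET, KO vs WT and HET vs WT (left to right), with 95% intervals on a common axis and filled points for an adjusted p under 0.05. Tlr1 is filled at 0.41 against both HET and WT, Tlr7 has the widest intervals, and no point is filled in HET vs WT.

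Over the 8 tested members the median log2 difference was 0.10 in KO vs WT, 0.13 in KO vs HET and -0.01 in HET vs WT, against 0.01, 0.01 and 0.00 over all genes. When each array was centred on its median instead, the median over all genes moved to -0.11 in KO vs WT, that of the members to -0.02, and the number of members with a positive difference to 4 of 8 from 5 of 8. Tlr1 was called under that scaling too, with a difference of 0.29. In HET vs WT limma called 0 of 8 members, with 0 at an unadjusted p under 0.05. Of all 10331 genes, 0.00968% were called and 408 had an unadjusted p under 0.05. In simulated KO vs WT data of 23344 probe sets, 24% of 50 probe sets changed by 0.50 (log2) were recovered, and 64% of 50 changed by 1.00. The simulation changed far fewer probe sets than differed in the data, and drew them from bright and dim ones alike. These shares are therefore not the recovery to be expected for the members.

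A list of 58 other genes of the pathway placed these members in context. Of the 45 that were tested, 7 were higher in KO vs WT, 0 were lower and 38 did not pass (limma, 15 at an unadjusted p under 0.05). Of all 10331 genes, 2589 had an unadjusted limma p under 0.05 in this comparison. The 7 are 15.6% of the genes tested, where 4.79% of all genes were higher, and the median difference of the 45 was 0.11. Centred on the array medians, 4 were higher and 1 was lower, the protease gene Lgmn, and of all genes 337 were higher and 1364 lower, against 495 and 507 in the scaling used here. Without KO replicate 2, WT replicate 1 or WT replicate 3 the count was 4. Ly96, Cd36, Pik3ap1 and Tnip1 were called in each of the settings run.

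The 2 tested ligand-binding cofactors were both higher. Ly96, which encodes the TLR4 partner MD-2, gave 1423, 1259 and 1457 on the KO arrays, 880.5, 905 and 908 on the HET arrays and 929, 963 and 867 on the WT arrays. Every KO array lay above every HET and WT array, as against HET for 14.5% and against WT for 16.2% of all genes. HET and WT arrays overlapped. Ly96 rose by 0.58 in KO vs WT (SE 0.08, limma adjusted p = 0.00119) and by 0.62 in KO vs HET (SE 0.08, limma adjusted p = 9.99e-04). Cd36, a scavenger receptor that hands lipids to TLR2 complexes, gave 1057, 1350.5 and 809 on the KO arrays, 500.3, 402 and 351 on the HET arrays and 400.3, 348 and 397 on the WT arrays. It rose by 1.46 in KO vs WT (SE 0.18, limma adjusted p = 3.46e-04), and its other probe sets rose by 1.49 and 1.70 (adjusted p = 4.29e-05 and 4.75e-04). Cd14 and Lbp, 2 further lipopolysaccharide-binding genes, did not reach the array median on any of the 9 arrays.

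Of 3 tested adaptors, 2 were higher in KO vs WT. Pik3ap1, which encodes BCAP, an adaptor that links B cell and Toll-like receptors to PI3K, gave 2730.2, 2911 and 2748 on the KO arrays, 2079.5, 2242 and 2247 on the HET arrays and 1928, 2153 and 2204 on the WT arrays. The KO arrays stood above the rest without overlap, as against WT for 16.2% and against HET for 14.5% of all genes. It rose by 0.42 (SE 0.07, limma adjusted p = 0.0033), while its dimmer probe set had a difference of 0.37 (adjusted p = 0.173). Ticam1, which encodes the TLR3 and TLR4 adaptor TRIF, gave 354, 325 and 388 on the KO arrays, 237, 220.0 and 137 on the HET arrays and 225, 236 and 122 on the WT arrays. It rose by 0.92 (SE 0.25, limma adjusted p = 0.0473), and its call was lost in 12 of the alternative settings, with adjusted p up to 0.153 without WT replicate 3. Tirap, the bridge between TLR2 or TLR4 and MyD88, did not pass (0.22, adjusted p = 0.0815).

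Of 12 tested IRAK, TRAF and TAK1 signaling genes, Ikbke, a kinase that activates interferon factors, was higher. It stood at 171, 147 and 167 on the KO arrays, 101, 141 and 117 on the HET arrays and 85.3, 99.9 and 119 on the WT arrays, a rise of 0.67 in KO vs WT (SE 0.19, limma adjusted p = 0.049) that was lost in 13 settings (adjusted p up to 0.14, without WT replicate 1). Tbk1 (0.14, adjusted p = 0.184), Irak2 (0.37, adjusted p = 0.203) and Map3k8 (0.28, adjusted p = 0.243) did not pass. The probe sets of Map3k7, which encodes TAK1, disagreed: the brightest did not pass (-0.14, adjusted p = 0.348) and a dimmer one was higher (0.27, adjusted p = 0.046). Of 11 inhibitors, Tnip1, a partner of the NF-kB inhibitor A20, was higher, with 2590, 2290.0 and 2272 on the KO arrays, 1608, 1768 and 1784 on the HET arrays and 1565, 1767 and 1472 on the WT arrays. It rose by 0.58 in KO vs WT (SE 0.09, limma adjusted p = 0.00154) and by 0.47 in KO vs HET (SE 0.09, limma adjusted p = 0.00741). Irak3, a kinase-dead brake on the pathway (0.51, adjusted p = 0.18), Nlrc3 (0.24, adjusted p = 0.467) and Tollip (-0.07, adjusted p = 0.597) did not pass, nor did Tnfaip3, which encodes A20 (0.02, adjusted p = 0.936).

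Of 9 tested folding, trafficking and cleavage genes, Hsp90b1 was higher. It encodes gp96, the chaperone that folds most Toll-like receptors. Its signal was 2664, 3351 and 2885 on the KO arrays, 2231, 2152 and 2146 on the HET arrays and 2033, 2441 and 2320.1 on the WT arrays. It rose by 0.39 in KO vs WT (SE 0.09, limma adjusted p = 0.0218), and its second probe set by 0.50 (adjusted p = 0.0446). The call was lost with arrays centred on their median (0.27, adjusted p = 0.0899), without the trend (adjusted p = 0.0791) and without KO replicate 2, WT replicate 1 or WT replicate 3 (adjusted p = 0.0786, 0.0758 and 0.0557). Its co-chaperone Cnpy3 (0.34, adjusted p = 0.091), Lgmn (-0.32, adjusted p = 0.109) and the transporter gene Slc15a4 (0.20, adjusted p = 0.532) did not pass.

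**Figure D3:**
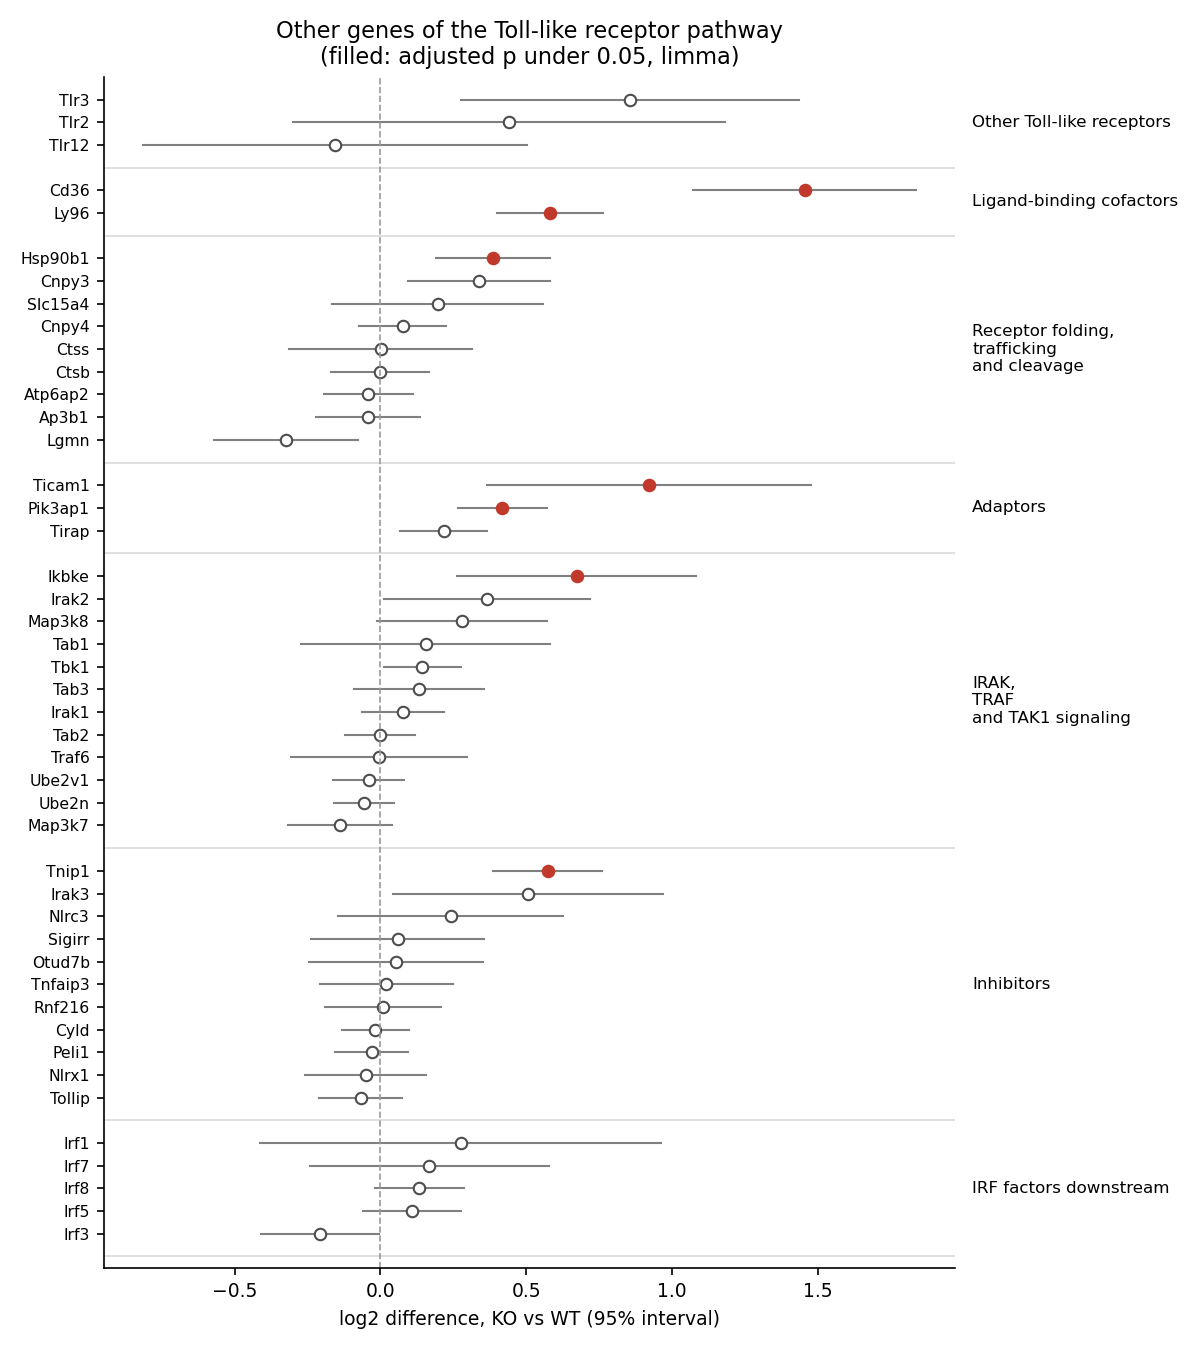
Log2 difference in KO vs WT of the 45 tested pathway genes outside the members, by role, with 95% intervals and filled points for an adjusted p under 0.05. The 7 filled points lie right of 0, from 0.39 for Hsp90b1 to 1.46 for Cd36.

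Of the 3 other Toll-like receptors tested, limma called 0 in KO vs WT, where 9.7% of all genes were called. Of these 3, 1 had an unadjusted p under 0.05, as had 2589 of all 10331 genes. The 1 receptor gene was Tlr3, which senses double-stranded RNA and signals through TRIF alone. Its brighter probe set gave 741, 567 and 377 on the KO arrays, 333, 196 and 298 on the HET arrays and 282, 402 and 234 on the WT arrays. The KO arrays lay above all HET arrays, as for 14.5% of all genes, and overlapped with 1 WT array. Tlr3 had a difference of 0.86 in KO vs WT (SE 0.27, limma adjusted p = 0.0744), which passed without KO replicate 3, the lowest KO array (1.12, adjusted p = 0.0254). In KO vs HET it rose by 1.00 (SE 0.27, limma adjusted p = 0.0486). Tlr12 did not pass in KO vs WT (-0.16, adjusted p = 0.817). Of 5 downstream interferon factor genes limma called 0, with 1 at an unadjusted p under 0.05, Irf3 (-0.21, adjusted p = 0.215). That value is from its brightest probe set. Mean KO signals of the other Irf3 probe sets were 99.4%, 117% and 115% of WT, with overlapping arrays. Irf8 (0.13, adjusted p = 0.29), Irf5 (0.11, adjusted p = 0.453) and Irf7 (0.17, adjusted p = 0.655) did not pass.

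**Figure D4:**
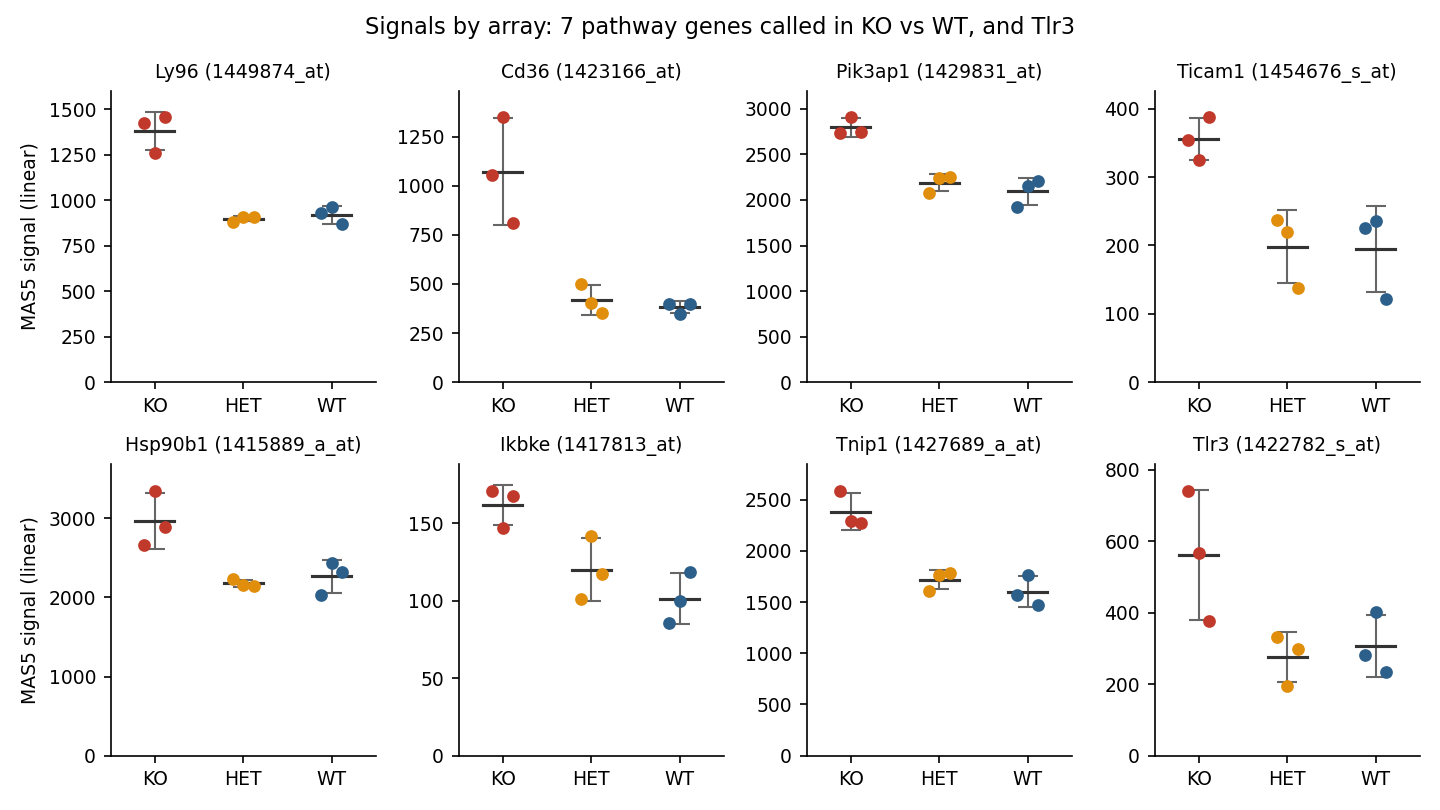
MAS5 signal (linear, from 0) by array for the 7 pathway genes called in KO vs WT and for Tlr3, with KO, HET and WT from left to right. Points are arrays, bars the mean and whiskers the SD (n = 3). For Ly96 the KO arrays lie between 1259 and 1457 and the HET and WT arrays between 867 and 963, while Tlr3 KO and WT arrays overlap.

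In KO vs HET, 7 of 45 pathway genes were higher and 0 lower, where 3.45% of all genes were higher. These were Cd36, Ly96, Tnip1, Pik3ap1, Hsp90b1, Map3k8 and Tlr3. Map3k8, which encodes the kinase TPL2, stood at 283, 297 and 260.5 on the KO arrays, 159, 202 and 182 on the HET arrays and 229.7, 232 and 229.2 on the WT arrays. KO arrays lay above all WT arrays, as for 16.2% of genes, and above all HET arrays, as for 14.5%. HET arrays lay below all WT arrays, as for 4.88%. It rose by 0.63 in KO vs HET (SE 0.13, limma adjusted p = 0.0172). KO vs WT and KO vs HET share the KO arrays. In HET vs WT limma called 0 of 45 (1 at an unadjusted p under 0.05). Over all genes 1 of 10331 was called there, and 408 had an unadjusted p under 0.05.

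Some marker lists of other cells moved with the genotype as well, and others did not. Of all 10331 genes, 4.79% were higher and 4.91% lower in KO vs WT, and 2589 had an unadjusted limma p under 0.05. Marginal zone B cells are splenic cells rich in Toll-like receptors, and 7 of 8 of their markers were higher in KO vs WT. Their summed signal was 12090 to 14439 in KO, 7667 to 8405 in HET and 7690.1 to 7727 in WT arrays. Such sums follow the brightest markers of a list, here Cr2 and S1pr3. Of 10 tested myeloid markers, Cd68 (0.67, adjusted p = 0.0104) and Lyz2 (1.78, adjusted p = 0.0192) were higher, and 8 did not pass. Among these 8 were Csf1r (2.46, limma adjusted p = 0.0567) and C1qb (2.21, limma adjusted p = 0.0953). S100a9, also among them, went the other way, with a mean of 34.7 in KO and 69.4 in WT cells and overlapping arrays. The median difference of the 10 was 0.73, and 5 had an unadjusted limma p under 0.05. The sum of the 17 myeloid markers on the array was 2416 to 3127 in KO, 1049 to 2546 in HET and 765 to 1778 in WT arrays, while Itgam, Fcgr1, Marco, C1qa, C1qc, Mpo and Elane stayed under the array median throughout. Of 6 plasma cell markers 4 were higher, against 4.79% of all genes. Their sums were 22133 to 24522 in KO, 19539 to 21632 in HET and 20629 to 21015 in WT arrays. Of 3 tested follicular B cell markers, Fcer2a (-0.76, adjusted p = 4.58e-05) and Satb1 (-0.55, adjusted p = 0.00363) were lower and Ccr6 was higher (1.00, adjusted p = 0.0147), with sums of 2460.2 to 2929 in KO, 4171 to 4450.5 in HET and 3557 to 3981 in WT arrays. Limma called 0 of 2 dendritic cell and 0 of 3 T cell markers in KO vs WT, with 1 of each list at an unadjusted p under 0.05. The dendritic sums were 718 to 898 in KO, 815 to 918 in HET and 699 to 796 in WT arrays, and the T cell sums 136 to 248 in KO, 199 to 375 in HET and 208 to 274 in WT arrays. The part of these cells in the rise of Tlr1, Ly96, Cd36 and the other called genes was not tested. The log2 ratio of 3' to 5' Actb control signals, a gauge of RNA integrity, was 1.19 ± 0.07 in KO and 1.16 ± 0.08 in WT arrays (SD, n = 3 each, exact two-sided permutation p = 0.70, where the smallest possible is 0.10).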

How the data were processed

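The authors deposited 1 intensity (MAS5 signal) per probe set and array, and named MAS5, per the submitters' processing notes; no version is stated there. After trimming 2% at each end, the mean was 500 on every array. Probe sets were named by the platform annotation, checked by Entrez identifier against RefSeq (GRCm38.p6), and those with several symbols were named for no gene.

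Signals were taken as log2(signal + 2.09), the offset being the 10th percentile of all signals. A probe set was tested when it reached its array's median on at least 3 of 9 arrays. A single model over all 9 arrays was fitted with limma 3.58.1 (R 4.3.3, eBayes with trend), and checked on simulated data. Intervals are 95%. Replicate numbers follow deposition order and pair nothing. The labels name 1 animal per array; where pools were used, p-values measure the spread between pools.

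The members, gene lists and the rule for naming genes (all members; of each role list up to 4 genes with the smallest adjusted p in KO vs WT; the 3 genes most like a called member) were chosen with earlier results of these data known. Tnfaip3, Map3k7, the KO vs HET calls and the TAAACA motif were chosen after their values were seen. The alternatives were offset, scaling, filter, probe set choice, variance prior, array weights, a block by Xist signal, the groups fitted and each array left out.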

Additional observations from a re-analysis of the deposited data

How the results depend on the processing

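The count of 1 member called in KO vs WT was 2 with quantile normalization and 0 without the trend in the prior, and ranged from 1 to 2 with 1 array left out. That of 1 in KO vs HET was 0 without the trend and 1 with each array left out. The counts of 0 in HET vs WT and for the HET departure were 0 in every setting run. Of 7 pathway genes called in KO vs WT, 4 to 7 were called with 1 array left out, and the other settings stayed within 1.5 times. All genes called numbered 1002 in KO vs WT, 1701 with arrays centred on their median (337 higher and 1364 lower, 19.8% higher against 49.4%), 653 without the trend and 586 to 948 with 1 array left out. In KO vs HET they numbered 738, 430 without the trend and 402 to 655 with 1 array left out; centring moved the share that was higher to 21.6% from 48.2%. In HET vs WT the count was 1, 3 with only the 2 groups fitted, and up to 2 with 1 array left out. A block on Xist signal over 1000, added after seeing the data since 1 array lay just above the planned bound, left 1 member and 6 pathway genes called in KO vs WT. No paired analysis was possible because the labels' numbers are not shared between genotypes. Tlr9 and the dimmest Tlr4 probe sets are limited by signals under the array median.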

Other observations

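Of 6 genes around Tlr1 and Tlr6 on chromosome 5, looked up after the values of Tlr1 were known, 2 passed the test in KO vs WT, Klf3 and Tmem156, and 4 did not. In the order of the RefSeq table, Klf3, a zinc finger repressor active in B cells, comes just before Tlr1, and Tlr6, Fam114a1 and Tmem156 follow. The 1 Klf3 probe set that passed the filter stood at 314, 228 and 238 on the KO arrays, 148, 182 and 139 on the HET arrays and 146, 119 and 122 on the WT arrays. All KO arrays lay above the others, as against WT for 16.2% and against HET for 14.5% of all genes. Klf3 rose by 0.99 in KO vs WT (SE 0.18, limma adjusted p = 0.00475) and by 0.72 in KO vs HET (SE 0.18, limma adjusted p = 0.0332). Fam114a1 stood at 129, 136 and 127 on the KO arrays, 76.3, 78.4 and 82.5 on the HET arrays and 71.5, 99.6 and 82.6 on the WT arrays, higher in KO vs HET (0.71, limma adjusted p = 0.0435) and not called in KO vs WT (0.63, limma adjusted p = 0.0602). Tmem156 fell by 0.28 in KO vs WT (SE 0.07, limma adjusted p = 0.0425). Pgm2 and Tbc1d1, before Klf3, and Klhl5, after Tmem156, did not pass in KO vs WT (adjusted p = 0.642, 0.934 and 0.871 by the brightest probe set). Over all genes, 9.7% were called in KO vs WT. Whether these neighbours change together was not tested.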
